A study of Mus musculus with 30 samples.

Results

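The small nucleolar RNA host genes *Gas5*, *Snhg1*, *Snhg3*, *Snhg5*, *Snhg6*, *Snhg8*, *Snhg12* and *Snhg15* were followed in mouse erythroleukemia (MEL) cells, an erythroid precursor line that begins to make hemoglobin when grown in DMSO. They are 8 of the 54532 genes of the count table, chosen by symbol and selected on earlier results from these same libraries, so that every contrast of their levels below is a description. Calls at the threshold are given as counts beside those of all genes and are no evidence about the 8. The cells were WT MEL cells of the DS19 clone, or Abcb10-null MEL cells, which came from a single clone made with lentiviral CRISPR/Cas9 against *Abcb10*, the gene of a mitochondrial membrane transporter. Both genotypes were sampled untreated (day 0) and at days 2 and 5 of growth with 1.5% DMSO. Each genotype and day had 5 libraries, given by the labels as biological replicates, which made 30 libraries. Since a single Abcb10-null clone was sequenced, the loss of *Abcb10* and the history of that clone cannot be told apart.

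Small nucleolar RNAs (snoRNAs) are short nuclear RNAs that guide the chemical modification of ribosomal RNA. Box C/D snoRNAs direct ribose methylation, and H/ACA snoRNAs direct the conversion of uridine to pseudouridine. Most are cut out of the introns of a longer host transcript. In the genes described here the spliced host RNA has no long open reading frame, and for several of them it is known to be removed by nonsense-mediated decay (NMD), the pathway that destroys an mRNA once a ribosome has met a stop codon too early. That decay needs translation, and host RNAs such as *Gas5* accumulate when translation is blocked or growth stops. Many host genes also begin with a run of pyrimidines, the terminal oligopyrimidine tract that ties translation of ribosomal protein mRNAs to nutrient supply.

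By the snoRNAs inside them, *Snhg1*, *Gas5*, *Snhg5* and *Snhg6* hold box C/D RNAs, *Snhg3*, *Snhg8* and *Snhg15* hold H/ACA RNAs, and *Snhg12* holds both kinds. *Snhg1* (chr19:8723475-8726443) contains 8 annotated snoRNA identifiers. *Gas5* (chr1:161034422-161038539) contains 10, with Snord80 annotated more than once at the same locus. *Snhg5* (chr9:88521050-88522929) carries the near-identical pair Snord50a and Snord50b, and *Snhg6* (chr1:9941959-9944118) carries Snord87. *Snhg3* (chr4:132348014-132353686) is the host of Snora73a and Snora73b, the U17 RNAs that act in the cleavage of the ribosomal RNA precursor. *Snhg12* (chr4:132308623-132311024), on the same chromosome, contains 5 snoRNA identifiers, with Snora16a annotated more than once at the same locus. *Snhg8* (chr3:123507552-123508404) and *Snhg15* (chr11:6525591-6528760) contain 1 each, Snora24 and Snora9. Coordinates are those of GRCm38.

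Sequence at the start of the genes was read from RefSeq (GRCm38.p6) because the pyrimidine tract lies there, and 7 of the 8 genes were matched. *Snhg6* was not among them. Each line gives 30 bases of the transcript's strand, beginning 10 bases before the annotated start. Capitals mark the longest run of at least 5 pyrimidines that lay at least partly from 5 bases before to 10 bases after the start.
Snhg1, chr19:8723477-8723506, plus strand: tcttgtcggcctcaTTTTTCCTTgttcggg
Gas5 (downstream start), chr1:161035156-161035185, plus strand: ccatctcagCCTTTCggagctgtgcggcat
Snhg5, chr9:88522878-88522907, minus strand: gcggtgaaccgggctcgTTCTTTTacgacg
Snhg12, chr4:132308668-132308697, plus strand: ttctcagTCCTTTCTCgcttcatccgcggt
Snhg3, chr4:132353667-132353696, minus strand: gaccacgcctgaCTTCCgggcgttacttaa
Snhg8, chr3:123508317-123508346, minus strand: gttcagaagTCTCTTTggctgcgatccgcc
Snhg15, chr11:6528741-6528770, minus strand: ctgtgaccgtaactttaagcacacgtgagc
Gas5 (upstream start), chr1:161034591-161034620, plus strand: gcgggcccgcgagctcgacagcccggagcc
A run of 9 pyrimidines stood at *Snhg1* and *Snhg12*, 7 at *Snhg5* and *Snhg8*, 6 at the downstream start of *Gas5* and 5 at *Snhg3*. The window of *Snhg15* and that of the upstream *Gas5* start held none. Of 32851 RefSeq windows, 39.3% had such a run, so it is a common feature of gene starts.

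The promoter windows (250 bases before to 50 after the start) were also searched on both strands for the cAMP response element TGACGTCA, the CCAAT/enhancer-binding protein and ATF response element TGATGNAAT and the TATA box TATAAA. The cAMP response element was found at *Snhg15*, from position -88 relative to the gene start, and at *Gas5*, from position -46 relative to the downstream start. It is present in 1.79% of all windows. These promoters are printed with the element in capitals.
Snhg15, chr11:6528711-6529010, minus strand: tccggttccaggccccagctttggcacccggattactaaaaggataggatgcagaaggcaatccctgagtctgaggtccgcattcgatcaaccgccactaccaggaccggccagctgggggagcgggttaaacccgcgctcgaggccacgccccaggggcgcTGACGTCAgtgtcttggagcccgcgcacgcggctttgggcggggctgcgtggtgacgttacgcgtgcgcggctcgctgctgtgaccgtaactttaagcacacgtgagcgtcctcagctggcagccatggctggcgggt
Gas5, chr1:161034916-161035215, plus strand: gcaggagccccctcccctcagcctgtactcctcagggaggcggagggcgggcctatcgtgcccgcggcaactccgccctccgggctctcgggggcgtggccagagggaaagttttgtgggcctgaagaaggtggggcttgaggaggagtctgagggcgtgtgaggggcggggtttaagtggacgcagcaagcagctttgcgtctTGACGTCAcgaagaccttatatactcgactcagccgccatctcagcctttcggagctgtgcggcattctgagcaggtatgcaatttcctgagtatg
TGATGNAAT was in no window of the 7 genes (0.965% of all windows hold it). The letters TATAAA were in the windows of *Snhg1*, *Snhg3*, *Snhg5* and *Snhg8* (13.6% of all windows). They began at position -23 in *Snhg5* and -30 in *Snhg8*. In *Snhg1* the match was on the opposite strand, from -29, and in *Snhg3* it lay after the start, from position 22. A match is a match of letters and no measure of binding.

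The counting of the authors bears directly on these genes. The annotation used here has 30 snoRNA identifiers inside the 8 host genes, and all 27 that lie wholly within annotated exons of their host, retained-intron transcripts included, had 0 counts in each of the 30 libraries. Over the whole table, 130 snoRNA identifiers lie wholly inside exons of a longer gene on the same strand and 0 of them had a count, whereas 46.9% of the 1334 outside such exons had at least 1. So 27 of the 30 identifiers gave no measure of their guide RNA, and Snora16a and Snord80 are each among them more than once. Whether reads over those stretches were given to the host or dropped was not tested. The other 3 identifiers were Snord87, Snora73a and Snora73b, printed here because they are the guide RNAs with counts beside their hosts. Capitals mark the C box TGATGA and the D box CTGA of Snord87, and the ACA that ends the H/ACA RNAs.
Snord87 (*Snhg6*): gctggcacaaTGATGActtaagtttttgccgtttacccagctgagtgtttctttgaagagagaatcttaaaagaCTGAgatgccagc
Snora73a (*Snhg3*): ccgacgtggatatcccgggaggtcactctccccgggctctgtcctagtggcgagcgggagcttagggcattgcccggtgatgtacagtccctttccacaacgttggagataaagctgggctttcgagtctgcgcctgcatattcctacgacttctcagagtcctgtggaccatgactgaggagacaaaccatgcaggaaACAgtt
Snora73b (*Snhg3*): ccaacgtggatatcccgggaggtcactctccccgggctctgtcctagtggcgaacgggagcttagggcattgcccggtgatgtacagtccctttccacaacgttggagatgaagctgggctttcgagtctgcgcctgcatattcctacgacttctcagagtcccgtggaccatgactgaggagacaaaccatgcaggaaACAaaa

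Library totals ran from 9906783 to 20157768 counts with a median of 16492116.5, and the 8 genes had from 53 (*Snhg15*) to 23561 (*Snhg1*) counts in a library. Levels are given as CPM, counts relative to the library size after TMM scaling. *Abcb10* was at 119 ± 5.65, 567 ± 87.5 and 1223 ± 45.6 CPM (SD, n = 5) at days 0, 2 and 5 in WT cells and at 74.3 ± 4.82, 202 ± 62.2 and 212 ± 30.2 in Abcb10-null cells. Markers of the erythroid lineage (11 genes, globins included, after globin depletion) summed to 836 to 927 CPM in WT and 769 to 841 CPM in Abcb10-null cells at day 0, and to 8098 to 14168 and 4134 to 5703 CPM at day 5. Markers of lymphoid cells summed to at most 4.36 CPM in any library, and 11 markers of myeloid and mast cells summed to 74.5 to 103 CPM in WT at day 0, 14.6 to 19 CPM in WT at day 5 and 35.6 to 52.5 CPM in Abcb10-null cells at day 5. Most of these myeloid sums was the single gene *Spi1*. It had 59.6 to 87.1 CPM in WT at day 0, 10.6 to 14.8 in WT at day 5 and 25.4 to 46.9 in Abcb10-null cells at day 5. The sums are therefore no measure of a myeloid cell share. The part of the markers in the results was not tested. In bulk RNA, fewer cells with a transcript and less of it per cell cannot be told apart.

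*Gas5* and *Snhg1* made up most of the host RNA, from 73.5% to 77% of the summed CPM of the 8 genes in every group. In WT cells at day 0, *Snhg1* stood at 877 ± 57.3 CPM and *Gas5* at 773 ± 48.4 CPM, followed by *Snhg5* at 198 ± 8.62 and *Snhg8* at 119.5 ± 16.3 CPM. *Snhg15* was the least abundant at 47.7 ± 5.75 CPM. Per kilobase of annotated exon, *Snhg1* had 295 CPM, *Gas5* 206, *Snhg8* 140.1, *Snhg5* 114, *Snhg3* 97.8, *Snhg6* 54.8, *Snhg15* 35.1 and *Snhg12* 29.1. The exon length includes retained introns where the annotation lists them. Annotated exons cover the whole span of *Snhg1*, *Snhg8* and *Snhg12*, but 986 of 5673 bases in *Snhg3* and 1359 of 3170 in *Snhg15*. The divisor is therefore unlike between genes, and this order is only rough.

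**Figure D1:**
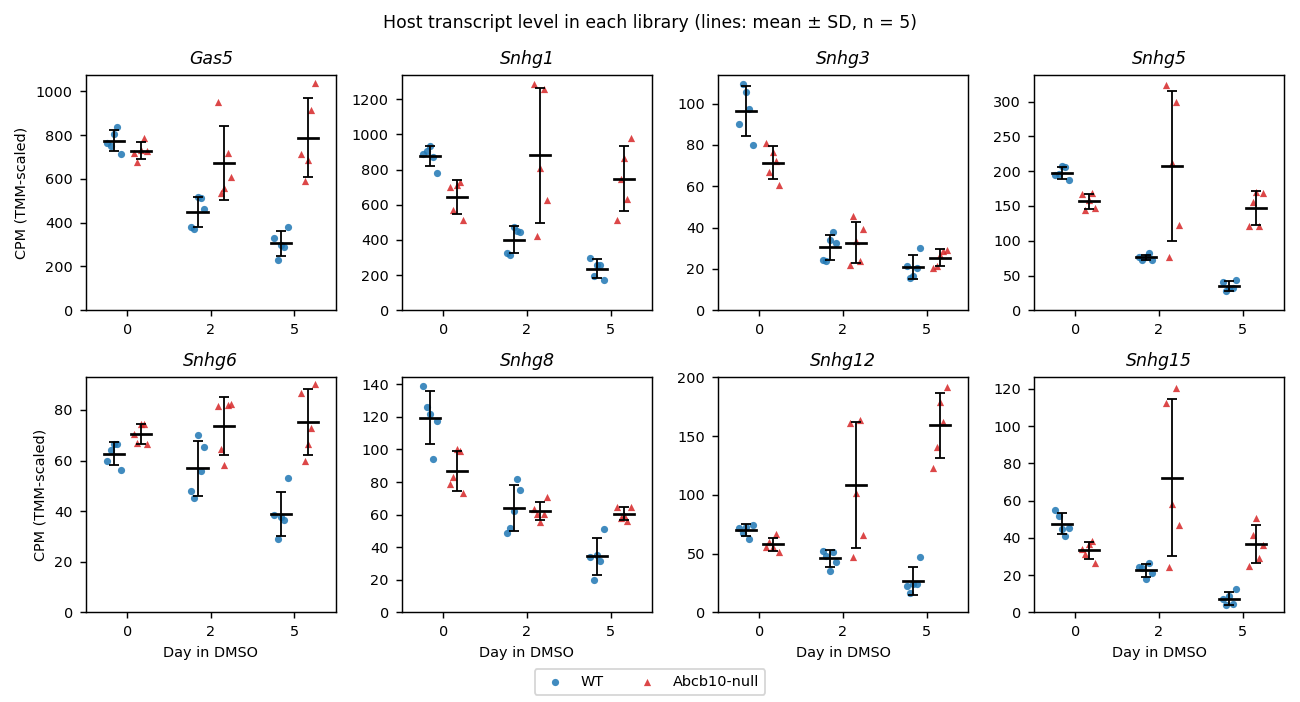
Level of each host gene in CPM (TMM-scaled, axes from 0) against day in DMSO, with 5 WT libraries as circles and 5 Abcb10-null libraries as triangles per day and the mean ± SD as lines. WT means go down with each sampled day, though libraries of days 0 and 2 overlap in *Snhg6*. Abcb10-null libraries of most genes stay near or above their day 0 level, while *Snhg3* and, by less, *Snhg8* go down in both genotypes.

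In WT cells the host RNAs fell as the cells differentiated. The summed level of the 8 genes went from 2245 ± 112 CPM at day 0 to 1148 ± 167 at day 2 and 706 ± 106 at day 5 (SD, n = 5). At day 2, 7 of the 8 genes passed the threshold as lower than at day 0 and 0 as higher, beside 30.7% and 31.5% of all genes tested. At day 5, 8 of 8 were lower, beside 34.7% called lower and 36.5% called higher among all genes. In each of the 8, all WT day 5 libraries lay below all WT day 0 libraries, as they did in 28.6% of all genes tested. The median log2 fold change of the 8 was -0.99 at day 2 and -1.84 at day 5, with 0.01 and 0.02 over all genes. Because the genes were chosen with these contrasts known, nothing is read from these shares.

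*Snhg15*, the host of Snora9, fell most in WT cells. Its 5 day 0 libraries had 55.2, 51.9, 44.9, 41 and 45.4 CPM, the day 2 libraries 24.3, 23.9, 17.7, 26.4 and 21 CPM and the day 5 libraries 7.36, 4.03, 8.81, 4.41 and 12.7 CPM. The 3 days did not overlap, and the log2 fold change at day 5 was -2.67 ± 0.261 (SE), a 6.38-fold fall. *Snhg5*, the host of Snord50a and Snord50b, had 194, 196, 207, 206 and 187 CPM at day 0, 76, 72.9, 77.3, 82.2 and 72.8 at day 2 and 40.4, 27.1, 32.2, 32 and 44.2 at day 5. Its days were also apart, with the tightest libraries of the 8 genes at day 2, and the log2 fold change at day 5 was -2.49 ± 0.124.

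*Snhg3* and *Snhg1* came next. *Snhg3*, the U17 host, had 90, 109, 105, 97.5 and 79.8 CPM at day 0 and 21.5, 15.7, 16.4, 20.7 and 30 CPM at day 5, and most of its fall (log2 -1.66 ± 0.14) was already present at day 2. *Snhg1*, also known as the U22 host gene, had 891, 908, 932, 871 and 783 CPM at day 0, 326, 317, 474, 452 and 444 at day 2 and 299, 192, 259.9, 259.5 and 172 at day 5. *Snhg8* and *Snhg12* were lower at day 5 by log2 values of -1.79 ± 0.195 and -1.38 ± 0.217. *Gas5* fell by less, to 305 ± 56.4 CPM with a log2 fold change of -1.34 ± 0.122. *Snhg6* changed least, with 56.3 to 66.6 CPM at day 0, 45.3 to 70.3 CPM at day 2, where the ranges overlapped, and 29.1 to 53 CPM at day 5 (log2 -0.69 ± 0.135).

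Before DMSO, the host RNAs of Abcb10-null cells were slightly below those of WT cells. *Snhg15* had 34, 31.2, 36.5, 38.2 and 26.5 CPM in the Abcb10-null libraries, below each WT value given above, and a log2 fold change of -0.53 ± 0.0998. *Snhg1* had 699.5, 571, 712, 732 and 516 CPM (log2 -0.45 ± 0.0865) and *Snhg5* 167, 144, 158, 168 and 147 CPM (log2 -0.34 ± 0.0623), again with no overlap between genotypes. The genotypes overlapped in *Snhg3*, *Snhg8* and *Snhg12*, with log2 fold changes of -0.44, -0.47 and -0.28. *Gas5* at 728 ± 39.3 CPM and *Snhg6* at 70.5 ± 3.95 CPM did not pass the threshold (log2 -0.09 ± 0.0588 and 0.16 ± 0.0695).

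At day 0, 6 of the 8 genes were called lower and 0 higher, beside 16.2% and 19.7% of all genes, and in 3 of the 8 each Abcb10-null library lay below each WT library (9.15% of all genes). These calls depend on the fit. When all 30 libraries entered one model, edgeR called 0 of the 8 (3 at an unadjusted p under 0.05), while the median log2 fold change stayed at -0.39. DESeq2 on the 10 libraries called the same 6.

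At day 2 *Snhg1*, *Snhg5*, *Snhg12* and *Snhg15*, lower in Abcb10-null cells at day 0, were higher than in WT cells, and their Abcb10-null libraries had spread out. *Snhg15* had 112, 24.2, 58.1, 121 and 46.7 CPM in Abcb10-null replicates 1 to 5, *Snhg5* had 324, 77.1, 212, 299.6 and 123 CPM and *Snhg12* had 162, 47.2, 102, 164 and 66.1 CPM. In each of the 3 genes replicates 1 and 4 were high, replicate 3 was between, and replicate 2 was at or near the WT range. *Snhg1* had the same order, with 1285, 424, 807, 1261 and 629 CPM. The log2 fold changes against WT were 1.61 ± 0.344 for *Snhg15*, 1.39 ± 0.303 for *Snhg5*, 1.17 ± 0.291 for *Snhg12* and 1.08 ± 0.261 for *Snhg1*.

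*Gas5* had 950.4, 535, 558, 717 and 608 CPM in the Abcb10-null libraries of day 2 and 382, 372, 516, 513 and 460.3 CPM in WT, with no overlap and a log2 fold change of 0.54 ± 0.165. Its call was lost when Abcb10-null replicate 1 or 4 or WT replicate 1 or 2 of day 2 was left out. *Snhg6*, *Snhg8* and *Snhg3* were not called (log2 0.32, -0.09 and 0.06). In *Snhg3* the Abcb10-null libraries ran the other way, at 21.8, 45.4, 33.4, 23.7 and 39.5 CPM, with replicate 2 the highest and replicates 1 and 4 the lowest. In all, 5 of 8 genes were called higher and 0 lower, beside 14.9% and 16.9% of all genes, and in 1 of the 8 the libraries of the genotypes were apart with Abcb10-null above (8.01% of all genes).

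The spread of day 2 was shared by other genes. Replicates 1 to 5 of the Abcb10-null cells had 504, 29.3, 496, 515 and 219 CPM of *Ddit3*, which encodes the stress transcription factor CHOP, against 43.8 to 61.4 CPM in WT libraries of day 2. Replicate 2 had the lowest *Ddit3*, *Snhg1*, *Snhg5*, *Snhg12* and *Snhg15*. Replicate 3 had *Ddit3* close to that of replicates 1 and 4 and less of those 4 host RNAs. The 11 erythroid markers summed to 1537, 908, 1414, 1448 and 1156 CPM in the same 5 libraries and were lowest in replicate 2. Whether these differences between libraries share a source was not tested.

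**Figure D2:**
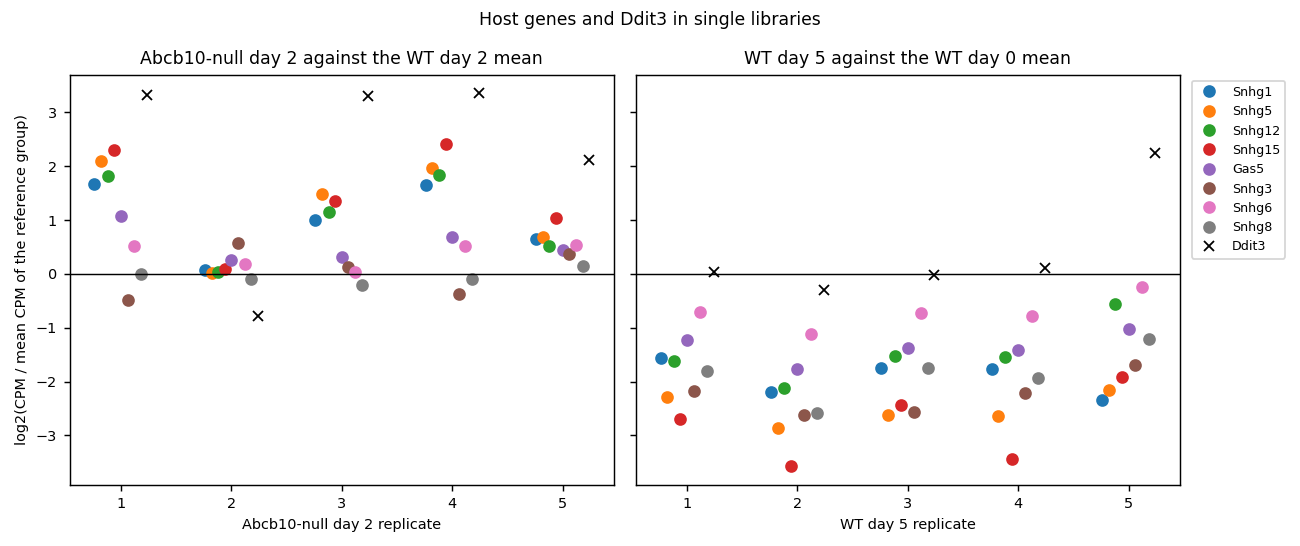
log2 of the ratio of each library's CPM to the mean CPM of a reference group, for the 8 host genes (colored circles) and *Ddit3* (crosses), by replicate number. The left panel sets Abcb10-null day 2 libraries against the WT day 2 mean, and the right panel WT day 5 libraries against the WT day 0 mean. Abcb10-null replicate 2 sits near 0 for *Snhg1*, *Snhg5*, *Snhg12* and *Snhg15* and above it for *Snhg3*, and WT replicate 5 of day 5 is the one with high *Ddit3*.

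At day 5 the host RNAs of Abcb10-null cells exceeded those of WT cells, except *Snhg3*. *Snhg12* differed most. Its Abcb10-null libraries had 123, 141, 179, 162 and 192 CPM and its WT libraries 22.8, 16.2, 24.3, 23.9 and 47.3 CPM, a log2 fold change of 2.56 ± 0.239 or 5.9-fold. WT replicate 5 was the highest of its group, and without it the value was 2.85. *Snhg15* had 25.1, 41.6, 50.8, 29 and 36.3 CPM in Abcb10-null cells, above each WT value given earlier, and a log2 fold change of 2.29 ± 0.298, which was 2.56 without WT replicate 5.

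*Snhg5* stood at 122, 155, 170.1, 122 and 169 CPM in the Abcb10-null libraries of day 5, 4.18-fold above WT (log2 2.06 ± 0.153). *Snhg1* stood at 515, 746, 864, 635 and 981 CPM, 3.14-fold above WT (log2 1.65 ± 0.195). For *Gas5* the Abcb10-null libraries had 714, 591, 686, 915 and 1036 CPM and the WT libraries 329.6, 228, 296, 289.7 and 382 CPM (log2 1.36 ± 0.168). No Abcb10-null library of these 3 genes reached down to the WT range.

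*Snhg6* and *Snhg8* differed by less. *Snhg6* was at 60 to 90.1 CPM in Abcb10-null against 29.1 to 53 CPM in WT libraries (log2 0.94 ± 0.158), and *Snhg8* at 55.9 to 64.9 against 19.9 to 51.5 CPM (log2 0.81 ± 0.185). *Snhg3* had 20.5, 21.4, 26.6, 28.8 and 29.4 CPM in Abcb10-null and 21.5, 15.7, 16.4, 20.7 and 30 CPM in WT libraries, which overlapped, and its log2 fold change was 0.27 ± 0.181. It reached 0.43 and passed the threshold only in the fit without WT replicate 5. Of the 8 genes, 7 were called higher and 0 lower, beside 19.8% and 17.8% of all genes, and the genotypes did not overlap in the same 7, as in 13.5% of all genes. The median log2 fold change of the 8 was -0.39, 0.81 and 1.51 at days 0, 2 and 5.

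**Figure D3:**
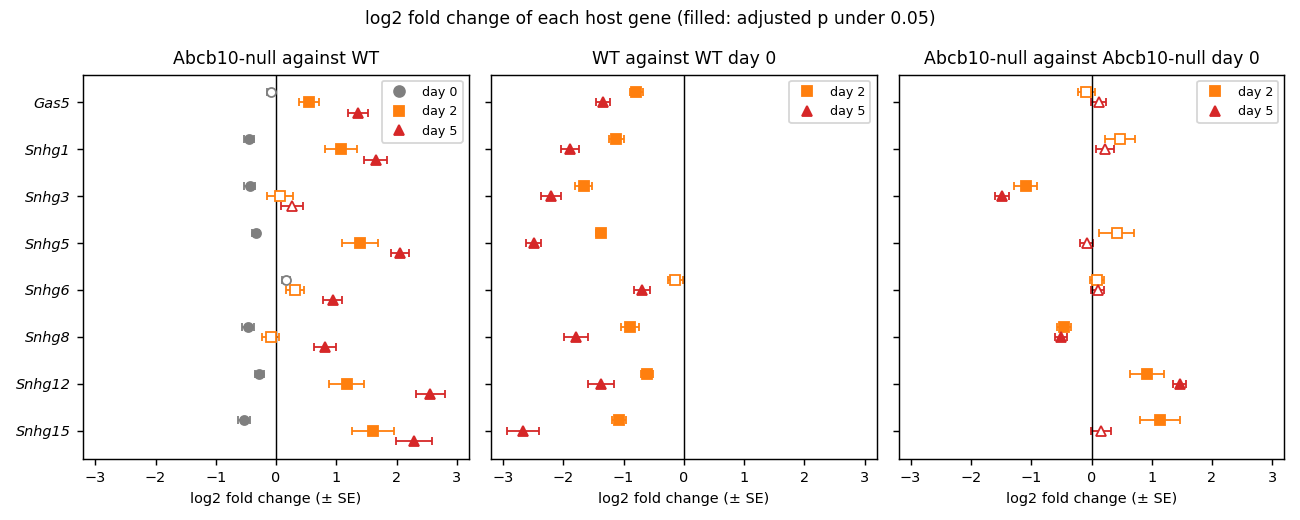
log2 fold change ± SE of each host gene, for Abcb10-null against WT at days 0, 2 and 5 (left), WT days 2 and 5 against WT day 0 (middle) and Abcb10-null days 2 and 5 against Abcb10-null day 0 (right). Filled symbols passed an edgeR adjusted p of 0.05. *Snhg12* and *Snhg15* lie farthest right at day 5 in the left panel, and the middle panel has no value above 0.

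WT replicate 5 of day 5 differed from the other WT libraries of that day. It had the highest *Snhg3*, *Snhg5*, *Snhg6*, *Snhg8*, *Snhg12*, *Snhg15* and *Gas5* of the group and the lowest *Snhg1*. Its *Ddit3* was 321.5 CPM against 54.7 to 72.6 CPM in the others, and its erythroid markers summed to 8098 CPM against 11429 to 14168 CPM in the others.

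Within Abcb10-null cells the host genes did not follow one course over time. *Snhg12* rose, from 55.8, 60, 56, 66.6 and 51.5 CPM at day 0 to the values given for day 5 (log2 1.46 ± 0.115, with no overlap). *Snhg15* was called higher at day 2 (log2 1.14 ± 0.332) and was back to 36.6 ± 10.2 CPM at day 5, near its day 0 level of 33.3 ± 4.64 CPM. *Snhg3* fell at both days (log2 -1.09 ± 0.19 and -1.49 ± 0.118), and *Snhg8* fell by less (log2 -0.46 ± 0.112 and -0.51 ± 0.0979). For *Snhg1*, *Snhg5*, *Snhg6* and *Gas5* the day 5 levels overlapped with those of day 0, with log2 fold changes of 0.22, -0.08, 0.10 and 0.12.

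At day 2 against day 0 of the Abcb10-null cells, 2 of 8 genes were called higher and 2 lower, beside 23.1% and 20.1% of all genes. Without Abcb10-null replicate 2 of day 2, *Snhg1* and *Snhg5* were called higher too, which made 4. At day 5, 1 of 8 was called higher and 2 lower, beside 33.9% and 33.3%, and *Snhg1* made a second higher call without Abcb10-null replicate 1 of day 5. The log2 difference between the day 5 changes of the genotypes (Abcb10-null minus WT) was 2.85 ± 0.258 for *Snhg12*, 2.83 ± 0.319 for *Snhg15*, 2.42 ± 0.167 for *Snhg5*, 2.12 ± 0.224 for *Snhg1*, 1.47 ± 0.18 for *Gas5* and 1.29 ± 0.224 for *Snhg8*. It was 0.79 ± 0.175 for *Snhg6* and 0.72 ± 0.204 for *Snhg3*. For this difference 8 of 8 genes were called higher, beside 16.8% of all genes higher and 14.7% lower.

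The groups can also be put in order for each gene. *Snhg12* was highest in Abcb10-null cells at day 5 and *Snhg15*, *Snhg5* and *Snhg1* in Abcb10-null cells at day 2, in each case overlapping with the group next in order. *Snhg3* and *Snhg8* were highest in WT cells at day 0, which overlapped with Abcb10-null cells at day 0. WT cells at day 5 were the lowest group for all 8 genes. They lay apart from the next lowest group, without overlap, in *Snhg1*, *Snhg5*, *Snhg8* and *Snhg15*. The share of all genes with this order was not counted, so nothing about the 8 is read from it.

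Over the 30 libraries, log2(CPM + 0.5) of the genes was correlated in pairs, as a description of points that share library, scaling and day. Pearson's r ran from 0.0744 to 0.957 over the 28 pairs, with a median of 0.769. The closest pair was *Snhg1* and *Snhg5* (r = 0.957), followed by *Snhg5* and *Snhg15* (r = 0.953), and the loosest was *Snhg3* and *Snhg12* (r = 0.0744). *Snhg3* took part in 4 of the 5 lowest values. Among 14694 other genes, those most like the mean standardized level of the 8 were *Adh5* (r = 0.968), *Psph* (0.968), *Pwp1* (0.965), *Farsb* (0.964) and *Psat1* (0.959). *Psph* and *Psat1* encode enzymes of serine synthesis and *Farsb* a subunit of phenylalanyl-tRNA synthetase. Those most opposite were *Extl3* (-0.953), *Atp2b4* (-0.952), *Gm37527* (-0.94), *Ampd3* (-0.937) and *Slc25a51* (-0.931).

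Other non-coding hosts were looked at beside them. This list and the lists below were also fixed with earlier results of these libraries known. Their adjusted p-values are therefore descriptions and no independent tests. *Zfas1*, the host of Snord12 family RNAs, had 227, 226, 247, 228 and 310.2 CPM in Abcb10-null and 107, 66.9, 87.5, 87 and 74.3 CPM in WT libraries at day 5, a log2 fold change of 1.54 (edgeR adjusted p = 8.6e-06). At day 2 its value was 0.86 (edgeR adjusted p = 0.00759). At day 0 it was -0.18 (edgeR adjusted p = 0.024), but not past the threshold once Abcb10-null replicate 2 was left out (-0.14), with all 30 libraries in one fit (-0.17) and with every gene of at least 1 count (-0.17). *Snhg17* had log2 fold changes of -0.44, 1.12 and 1.65 at days 0, 2 and 5, and was called at day 5 (edgeR adjusted p = 5.88e-05). *Epb41l4aos* differed by 1.16 (edgeR adjusted p = 0.00105) at day 5, with 46.8 CPM in Abcb10-null and 20.9 in WT cells after 44.9 and 45.7 at day 0. *Dancr*, *Snhg9*, *Snhg10* and *Snhg20* did not pass at day 5, with log2 values of 0.25, 0.59, -0.10 and 0.10. *Snhg11*, *Snhg14* and *Snhg18* had too few counts to be tested.

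Many snoRNAs sit in introns of protein-coding genes, most of them for ribosomal proteins, translation factors and nucleolar proteins. Of 36 such hosts, 27 were called higher and 1 lower at day 5, and the median log2 fold change was 0.66, against 1.51 for the 8 non-coding hosts and -0.02 for all genes. At day 2 the counts were 10 and 1, and at day 0 2 and 15. At the same time 19.8% of all genes were called higher and 17.8% lower at day 5, 14.9% and 16.9% at day 2 and 19.7% and 16.2% at day 0. The largest positive differences from WT at day 5 were in *Hspa9*, the mitochondrial Hsp70, with 2.32 (edgeR adjusted p = 0.000108), and in *Wdr43*, a ribosome assembly factor, with 1.62 (edgeR adjusted p = 5.5e-06). *Hspa9* went from 1402 to 1856 CPM between days 0 and 5 in Abcb10-null cells and from 1459 to 371 in WT cells, whereas *Wdr43* fell in both, from 534 to 348 and from 501 to 113 CPM. *Hspa8*, the cytosolic heat shock cognate and host of Snord14 family RNAs, was lower than in WT cells, with a log2 fold change of -0.93 (edgeR adjusted p = 0.00351). In WT cells 29 of the 36 were called lower at day 5 than at day 0, beside 34.7% of all genes, with a median of -0.74 against -1.84 for the 8 genes.

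A snoRNA works in a particle with core proteins, which assembly factors load onto it. Of 15 tested, 11 were called higher and 0 lower between genotypes at day 5, and their median log2 fold change was 0.61. *Nop56*, *Nop58* and *Dkc1*, all called higher, are also counted among the protein-coding hosts above. *Nop58*, a core box C/D protein, exceeded its WT level by 1.48 (edgeR adjusted p = 2.05e-05), and *Gar1*, a core H/ACA protein, by 1.26 (edgeR adjusted p = 0.00186). Both fell from day 0 to day 5 in each genotype, *Nop58* from 644 to 469.5 CPM in Abcb10-null and from 660.3 to 167 in WT cells, and *Gar1* from 24.1 to 8.44 and from 29.6 to 3.52. Among all genes, 19.8% were called higher at day 5. Over time, 14 of the 15 were called lower at day 5 than at day 0 within Abcb10-null cells, beside 33.3% of all genes, with a median of -1.01 beside 0.11 for the host genes.

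Transcripts of the decay machinery itself showed no common direction at day 5, while those called at day 0 were all lower. Of 15 tested genes for NMD and exon junction factors, 0 were called higher and 8 lower at day 0 (median log2 fold change -0.22). The shares of all genes were 19.7% and 16.2%. At day 2 the counts were 1 and 2, beside 14.9% and 16.9% of all genes. At day 5 they were 3 and 4, beside 19.8% and 17.8%, with a median of -0.10. *Eif4a3*, the helicase of the exon junction complex, was higher than in WT cells by 0.88 (edgeR adjusted p = 0.000268) and *Smg5*, which recruits decay enzymes, by 0.74 (edgeR adjusted p = 8.27e-05). Between days 0 and 5 *Eif4a3* fell in both genotypes, from 201 to 141 CPM in Abcb10-null and from 193 to 76.4 in WT cells. *Rbm8a*, an exon junction core protein, was below WT, with a value of -0.59 (edgeR adjusted p = 0.000414). *Upf2* had a value of -0.42 (edgeR adjusted p = 0.0291), and leaving out any of 4 libraries (WT replicates 2 and 4, Abcb10-null replicates 1 and 5) ended its call, at values from -0.42 to -0.34, as did a filter of at least 1 count (-0.45). *Upf1*, the central helicase of the pathway, was below WT at day 2, with a log2 fold change of -1.01 (edgeR adjusted p = 0.0187), where WT cells had gone from 53.5 to 93.4 CPM and Abcb10-null cells from 44.8 to 48.1. It was not called without WT replicate 1 (-0.80) or 2 (-0.84) of that day. Of 7 coding transcripts known as NMD targets, 1 was called higher and 2 lower at day 0, beside 19.7% and 16.2% of all genes. At day 2 the counts were 5 and 2, beside 14.9% and 16.9%. At day 5, 3 were called higher and 0 lower, beside 19.8% and 17.8%. They include *Atf3*, which exceeded WT by 2.45 (edgeR adjusted p = 1.84e-05), and *Ddit3*, which did so by 1.77 (edgeR adjusted p = 0.00604) and by 2.58 without WT replicate 5. Both encode transcription factors of stress responses and are also transcribed on stress, so that their level is no measure of decay alone.

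**Figure D4:**
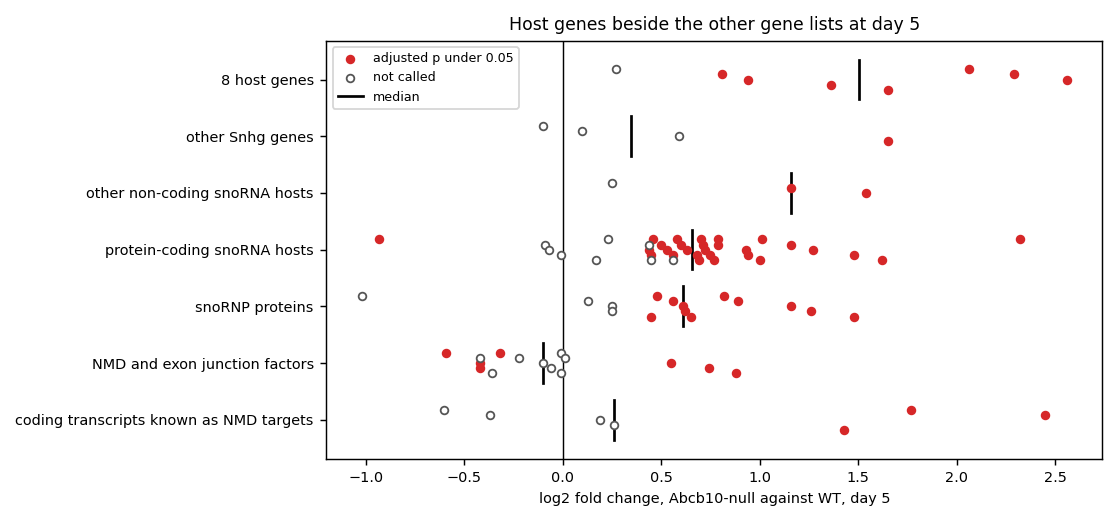
Day 5 difference (log2, Abcb10-null over WT) for single genes of each list, with filled points for an edgeR adjusted p under 0.05 and a vertical line at the list's median. The 8 host genes run from 0.27 to 2.56 with a median of 1.51, the protein-coding hosts have a median of 0.66, and the decay factors lie on both sides of 0.

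The nearest tested gene on each side of the 8 hosts was taken to see whether levels moved by neighborhood. At day 5, 5 of the 16 neighbors were called higher and 2 lower between genotypes, beside 19.8% and 17.8% of all genes, around a median log2 fold change of 0.22. *Slc3a2*, the heavy chain of amino acid exchangers, starts on the other strand 106 bases from *Snhg1* and was above WT by 1.99 (edgeR adjusted p = 0.000349). Its Abcb10-null libraries of day 2 had 706, 156, 527, 636 and 291 CPM, with replicate 2 lowest, as for *Snhg1*. The gene pair differed in WT replicate 5 of day 5, where *Slc3a2* was highest at 384.5 CPM (107.9 to 132.6 in the others) and *Snhg1* was lowest at 172 CPM. *Rcc1*, which shares exons with *Snhg3*, differed by 1.35 (edgeR adjusted p = 0.000694) at day 5, where *Snhg3* was not called. It fell from 197 to 100.3 CPM in Abcb10-null and from 215 to 39.3 in WT cells between days 0 and 5. Exons of *Rcc1* cover 13.7% of the exon bases of *Snhg3* on the same strand, and the non-coding *Gm17300* covers 71.5% on the opposite strand. *Zbtb37*, which overlaps *Gas5* on the opposite strand, had a log2 value of -0.73 (edgeR adjusted p = 0.0364) and *Gas5* one of 1.36. Leaving out any of 6 libraries of day 5 (WT replicates 2 to 4, Abcb10-null replicates 2, 3 and 5) ended the *Zbtb37* call, at values from -0.77 to -0.44.

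The guide RNAs with counts belong to *Snhg3* and *Snhg6*. Snora73a had 508, 546, 496, 259 and 496 CPM in WT and 108, 83.7, 146, 125 and 68.2 CPM in Abcb10-null libraries at day 0, with no overlap. On the log2 scale it differed by -2.12 (edgeR adjusted p = 7.03e-08), and that of Snora73b was -1.39 (edgeR adjusted p = 0.000475). The host *Snhg3* differed by -0.44 in the same libraries. Of the 205 bases of Snora73a, 159 lie in annotated exons of *Snhg3*, which is 16.1% of the exon bases of the host. Where reads over that stretch were counted was not tested. At day 2 neither Snora73a nor Snora73b was called, with log2 values of -0.79 and -0.77, and at day 5 they were -0.40 and 0.18. Snora73a and Snora73b differ at few bases, as printed above, so reads could be shared between them. Snord87 had from 3 to 41 counts in a library and no call between genotypes at days 0 and 2, and too few at day 5 to be tested. Libraries made from fragmented total RNA recover RNAs of this length in part, and how that recovery varied was not tested.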

How the data were processed

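RNA of WT and Abcb10-null MEL cells was sequenced at days 0, 2 and 5 of growth in DMSO, with 5 libraries per group. The authors removed ribosomal and globin RNA, made stranded libraries of total RNA, trimmed the reads, aligned them to GRCm38 with STAR 2.6.1b and counted them per Ensembl gene with featureCounts 1.6.3. The deposited values are raw counts per gene, neither normalized nor filtered. The strand and multimapping settings of the counting are not given in the sources used here. The members and gene lists were chosen with earlier results of these data known.

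Groups and replicate numbers came from the sample labels. Genes were tested with edgeR 4.0.16 (R 4.3.3) using TMM, filterByExpr, glmQLFit and glmQLFTest on the libraries compared, calling genes at a Benjamini-Hochberg adjusted p of 0.05 across the genes tested. Comparisons were Abcb10-null against WT at each day, each later day against day 0 within a genotype, and the interaction of genotype and day 5 over day 0. Comparisons within a genotype share their day 0 libraries. CPM used TMM factors of all 30 libraries together. Replicates differed by more than counting error (lowest chi-square per degree of freedom 6.48), so errors come from the spread between libraries. Named genes were the 8 hosts and, per list and comparison, up to 2 called genes with the largest rise and 2 with the largest fall, and other genes named were picked after their values were seen. Positions came from GENCODE M21, which held 54495 of the 54532 identifiers, and sequences from RefSeq (GRCm38.p6) and that genome. The steps were tested on simulated counts. Alternatives were DESeq2 1.42.0, its size factors in edgeR, filters of at least 1 count or of 10 counts in every library, a fit of all 30 libraries, removal of 6142 globin, mitochondrial and small RNA genes, the replicate number as a block, and each library left out.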

Additional observations from a re-analysis of the deposited data

Results flagged for a closer look

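Among 48 groups of 5 libraries, 1 for each host gene, genotype and day, 1 had a library far from the other 4 by Dixon's test at the 95% level, which flags about 1 group in 20 by chance. It was *Snhg12* in WT cells at day 5, where replicate 5 had 47.3 CPM and the others 16.2 to 24.3 CPM. The same library stood apart in *Ddit3* (321.5 CPM against 54.7 to 72.6) and *Slc3a2* (384.5 CPM against 107.9 to 132.6). With other genes included, 108 groups were searched and 8 were flagged. *Slc3a2* also had 1 high WT library at day 2 (183.8 CPM against 157.0 to 163.5), and *Zfas1* 1 high Abcb10-null library at day 5 (310.2 CPM against 226.5 to 247.0). Snora73a had 1 low WT library at day 0 (258.7 CPM against 496.2 to 545.7), 1 low WT library at day 5 (107.3 CPM against 200.7 to 228.8) and 1 high Abcb10-null library at day 2 (349.2 CPM against 102.6 to 160.0).

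*Snhg12* moved in opposite directions by day 5, with a log2 fold change of -1.38 in WT cells and 1.46 in Abcb10-null cells, and every day 5 library lay beyond every day 0 library of its genotype on that side. The fitted difference, 2.85 ± 0.258 (SE), is a description, as the gene was chosen with these values known.

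Outside the 8 hosts, edgeR's interaction test called further genes of the lists, of which the following are those with the largest differences in each list (up to 2 in each direction, Abcb10-null minus WT, log2). Among non-coding hosts they were *Snhg17* (2.11), *Zfas1* (1.74) and *Epb41l4aos* (1.20), and among the guide RNAs Snora73a (1.74) and Snora73b (1.58). For protein-coding hosts they were *Hspa9* (2.40) and *Wdr43* (1.55), and for snoRNA proteins *Gar1* (1.59) and *Nop58* (1.54). For decay factors they were *Smg5* (1.11) and *Eif4a3* (0.85), for known decay targets *Atf3* (2.82) and *Ddit3* (2.16, or 2.97 without WT replicate 5 of day 5), and for neighbors *Slc3a2* (2.39), *Rcc1* (1.50), *Zbtb37* (-1.06) and *Zfp949* (-0.58).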

How the results depend on the processing

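Log2 fold changes of the 8 host genes moved by less than 1 SD between libraries under every alternative run, 448 values with other settings and 720 with 1 library left out. With all 30 libraries in one fit, 0 of the 8 were called lower at day 0 (6 in the fit of 10 libraries), and over all genes 1049 higher and 535 lower calls replaced 2550 and 2092 at day 0, while 3200 higher calls replaced 1944 at day 2. The cause was not tested. With every gene of at least 1 count, 4 hosts in place of 2 were called higher at day 2 in Abcb10-null cells, and 7810 in place of 4649 genes were called higher at day 5 in WT cells. Across the alternative settings, 2465 to 3175 of all genes were called higher at day 2 in Abcb10-null cells (2984 in the main fit). With 1 library left out, the hosts called higher within Abcb10-null cells numbered 2 to 4 at day 2 and 1 to 2 at day 5. The same fits called 2479 to 3419 and 4223 to 4427 of all genes higher. At day 2 between genotypes, 1158 genes were called higher without Abcb10-null replicate 1 and 1178 without replicate 4, and 1456 and 1426 lower without WT replicate 1 and 2 (2207 with all). Over 75 pairs of libraries with the same replicate number, the correlation of deviations ran from -0.339 to 0.496, with a median of -0.0269 and 10 over 0.1. Pairs with different numbers were not compared, so whether the numbers pair libraries was not tested. The call of *Zbtb37* at day 5 was lost in the replicate block (-0.65). A replicate block left the host calls between genotypes as they were. They were 6 of 8 lower at day 0, and 5 and 7 higher at days 2 and 5. The median at day 5 was 1.50 on the log2 scale. Over all genes the block fit called 2328 higher and 1892 lower of 12912 at day 0. The counts were 1682 and 2273 of 13053 at day 2, and 2386 and 1992 of 12676 at day 5. At least 53 counts lie behind each host value, and snoRNAs inside host exons could not be measured.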
